A study of Mus musculus with 28 samples.

Results

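Ctcf binding was compared between untransduced wild-type neural stem cells and Smchd1 null neural stem cells. The comparison was chosen by the sample titles. It uses 4 of the 28 libraries of the study, 2 from untransduced wild-type cells and 2 from null cells, and the list of Ctcf summits deposited for each group. A summit is the single base at which a ChIP-seq peak is highest.

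The study mapped Smchd1, Ctcf, H3K4me3, H3K27me3 and methylated DNA in cultured neural stem cells taken from the brains of male E14.5 mouse embryos of mixed C57BL/6 x FVB/N strain. Wild-type cells carried normal Smchd1, and null cells were homozygous for the MommeD1 allele (Smchd1MommeD1/MommeD1). All cultures were grown in medium with epidermal and basic fibroblast growth factor, and the labels name no treatment for either of the groups compared. A further Ctcf list, made from 2 libraries of wild-type cultures that carry a non-silencing hairpin (shRNA), serves here as the measure of how far lists from wild-type cells differ. The lists share their controls: per the labels, all 3 were called against Ctcf ChIP in wild-type cells transduced with 1 of the Ctcf shRNAs Ctcf.6 and Ctcf.7, with 1 library for each hairpin. The labels describe those control cells as Ctcf null. For the untransduced wild-type libraries the labels name a summit list of wild-type cells but a coverage track of null cells. The track was not used here, and the groups follow the sample titles. No null cells with a hairpin served as a control. Each list pools its 2 libraries, so it carries no replicate error, no difference between lists was tested, and the labels do not say whether libraries of a group came from separate embryos.

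Ctcf is a zinc finger protein that reads a long DNA motif, binds insulators and promoters, and stops cohesin so that chromatin loops form between its sites. Methylation of its motif blocks binding at some sites, which is how it separates the parental alleles at some imprinted genes. Smchd1, a noncanonical SMC protein of chromatin, has roles in silencing of the inactive X chromosome, of some imprinted genes and of the clustered protocadherin genes.

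The sequences below show what lies under a summit in a promoter. They are the stretches around a 9-base part of the Ctcf motif, CNAGGNGGC, searched on both strands in the 300 bases from 250 before to 50 after each annotated start site (RefSeq, GRCm38.p6). For each class of promoter, the pair with the highest summit and a match is printed. Capitals mark the match, 25 bases are shown on each side, and each line reads 5′ to 3′ on the strand of the gene.
Vps36: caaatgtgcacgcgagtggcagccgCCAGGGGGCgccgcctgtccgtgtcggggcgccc
Nipsnap2: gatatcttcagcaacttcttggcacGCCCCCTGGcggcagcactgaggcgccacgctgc
Polr2j: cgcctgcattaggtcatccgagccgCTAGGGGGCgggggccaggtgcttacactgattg
Bola2: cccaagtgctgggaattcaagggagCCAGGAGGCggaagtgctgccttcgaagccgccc
Nop14: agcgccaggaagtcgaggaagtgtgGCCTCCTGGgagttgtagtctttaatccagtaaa
Hs1bp3: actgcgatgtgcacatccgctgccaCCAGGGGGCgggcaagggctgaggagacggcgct

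Vps36, a subunit of the ESCRT-II sorting complex (chr8:22192733-22192791, plus strand), and Nipsnap2, a mitochondrial protein (chr5:129724938-129724996, plus strand), held a summit in both lists. The Vps36 summit scored 25.4 in wild type and 34.5 in null, where the score is the −log10 of the authors' p-value or q-value. The Nipsnap2 summit scored 27.9 in wild type and 34.2 in null. Polr2j, a subunit of RNA polymerase II (chr5:136116597-136116655, plus strand), and Bola2, a factor of iron and sulfur cluster handling (chr7:126695858-126695916, plus strand), held a summit in the null list and none in the untransduced wild-type list, with null scores of 21.9 and 20.8. Nop14, a ribosome assembly factor (chr5:34660223-34660281, minus strand), and Hs1bp3 (chr12:8313327-8313385, plus strand) held one in the wild-type list alone of the pair, with scores of 14.2 and 13.5. The non-silencing list held a summit at all of these promoters but Nop14. The match lay 6 to 15 bases from the summit at Vps36, Nipsnap2, Polr2j and Hs1bp3, and 114 and 121 bases from it at Nop14 and Bola2, so at the last pair the letters are not under the summit.

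Over all promoters, the match was more frequent where a list held a summit. It was found in 122 of 382 promoter windows with a summit of both lists (31.9%), in 86 of 294 with a null summit only (29.3%) and in 37 of 166 with a wild-type summit only (22.3%). Of all 32851 windows of this length, 2752 held it (8.38%). In windows with both a summit and a match, the median distance between them was 18 bases in wild type (159 windows) and 20 bases in null (208 windows). The 90 windows whose null summit had no counterpart in either wild-type list held it in 18 cases (20.0%). A match is a string of letters and not a measured binding site, and windows that neighbouring genes share were counted for each start.

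The untransduced wild-type list held 8292 summits on assembled chromosomes and the null list 11920, so the null list was longer by 1.44 times. The non-silencing list held 20483, more than either. The median score was 8.68 in wild type, 8.28 in null and 9.94 in the non-silencing list, and 37.9%, 31.1% and 49.7% of summits reached a score of 10. The sequencing depth of these libraries is unknown here, and list length depends on it. Genes of the cells' labelled type and of other types were set beside H3K4me3, which marks active promoters. In wild type 21 of 22 neural stem cell genes, and in null 20 of 22, had an H3K4me3 summit no more than 2 kb from either end. The same held for 13 and 14 of 18 neuron genes, 4 and 4 of 12 glia genes, 2 and 2 of 11 blood and microglia genes, 3 and 3 of 12 endothelium and mesenchyme genes, and 1 and 1 of 12 germ cell genes. The share over all coding genes is not given here, so these counts alone do not establish the cell type.

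The untransduced wild-type list stood apart from both others at a few genes, described before the shares because its highest scores lie there. Its highest summit, with a score of 191, lay 136 bp before the start of Pgk1, a glycolytic enzyme (chrX:106187100-106203699). The null list held no summit within 1 Mb of it, and the non-silencing list held one 98 bp away with a score of 8.82. Mlkl, the effector of necroptosis (chr8:111311255-111338479), held 7 wild-type summits inside the gene with scores from 13.4 to 117. Ripk1, a kinase of cell death signalling (chr13:34002225-34035170), held 9 with scores from 9.85 to 46.8. Ube2m, the NEDD8 conjugating enzyme (chr7:13035120-13038275), held 4 with scores from 25.8 to 84.1, and Mrpl44, a protein of the mitochondrial ribosome (chr1:79776018-79781445), held 4 with scores from 5.64 to 16.8. Within the spans of these 4 runs, the null list and the non-silencing list each held 0 summits. The 10 highest wild-type summits with no null summit within 5 kb and with the end of a coding gene within 10 kb all lay at Pgk1, Mlkl, Ube2m and Ripk1. Whether 1 or both wild-type libraries carried them was not tested, because the list pools them. Whether the Pgk1 summit and the 4 runs are Ctcf sites or places of high background signal was not tested either.

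**Figure D1:**
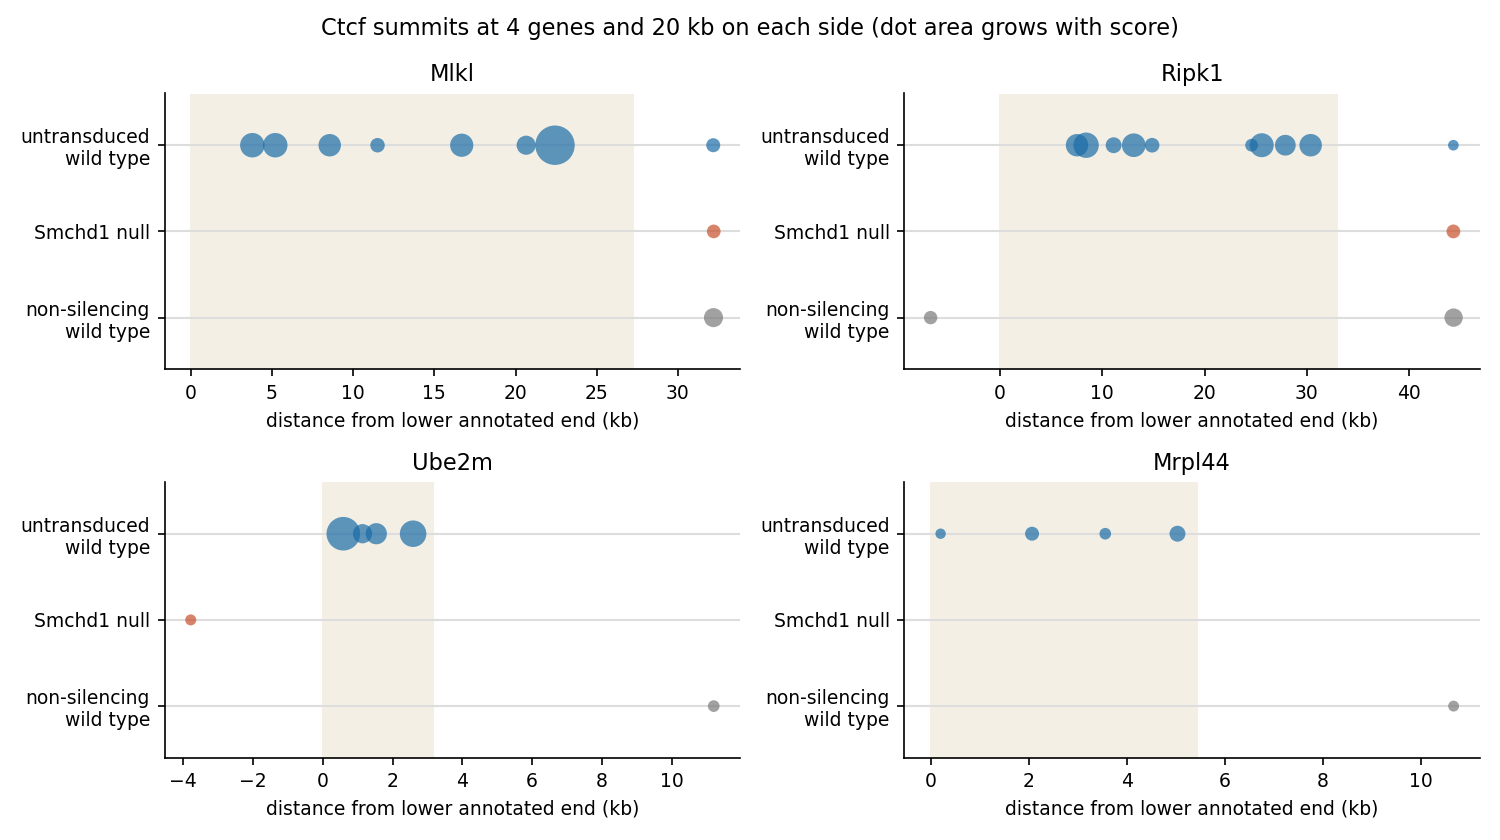
Ctcf summits at Mlkl, Ripk1, Ube2m and Mrpl44 in the 3 lists, by distance in kb from the lower annotated end of the gene. The shaded box is the gene, 20 kb on each side were searched, and dot area grows with the score. The 7, 9, 4 and 4 wild-type summits inside the genes have no counterpart in the lists below, while summits beside Mlkl and Ripk1 are in all 3.

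A null summit lay at most 1 kb from 5116 of the 8292 wild-type summits, or 61.7% (exact 95% interval 60.6% to 62.7%, counting error only). Of the 11920 null summits, 5166 had a wild-type summit within 1 kb, a share of 43.3% (42.4% to 44.2%). Without the 4 runs and the Pgk1 summit, 25 summits in all, the first share was 61.9% and the second was still 43.3%. Shared summits lay at almost the same base, with a median distance of 20 bp, and 4481 of 5066 pairs of mutually nearest summits (88.5%) lay within 50 bp. The median score of these pairs was 9.51 in wild type and 9.72 in null. A summit with no counterpart was usually far from one: the median distance to the other list was 42194 bp for wild-type summits and 65800 bp for null summits.

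The same lists overlapped more with the non-silencing list. Of wild-type summits 85.6% had a non-silencing summit within 1 kb, and of null summits 75.7%. The non-silencing list is the longest, and a longer list offers more counterparts. When each of the pair was cut to its 8292 highest summits, 51.5% of wild-type summits had a null counterpart and 51.4% of null summits a wild-type one.

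High-scoring summits were shared most often. Each list was divided into 10 equal parts by score. In the highest part 84.3% of wild-type summits had a null counterpart, and in the lowest part 42.2%. For null summits the share went from 77.9% in the highest part to 18.2% in the lowest. With the non-silencing list the shares went from 96.0% to 70.4% for wild type and from 96.6% to 42.5% for null. Of the 100 highest wild-type summits 85 had a null summit, and of the 100 highest null summits 92 had a wild-type one, but only 36 of each were paired inside both top 100. The 15 unpaired wild-type summits all lay at Pgk1, Mlkl, Ube2m and Ripk1, and 1 of them had a non-silencing counterpart. All 8 unpaired null summits had one.

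**Figure D2:**
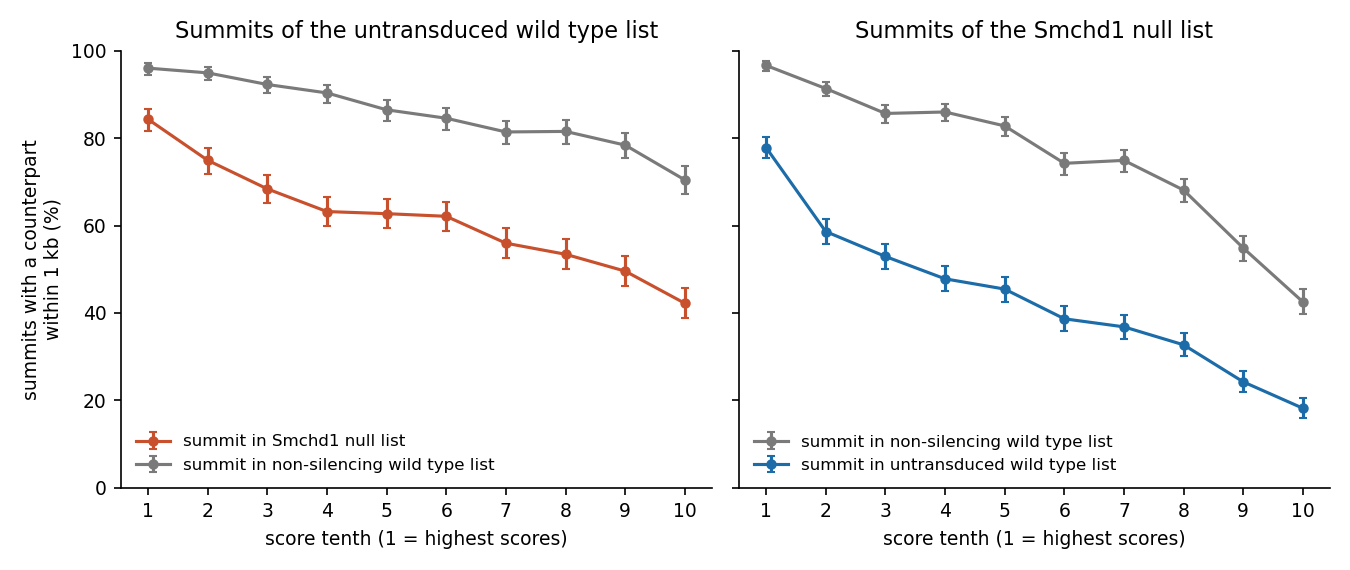
Share of Ctcf summits with a counterpart within 1 kb (percent) in each of 10 equal parts of the list by score, for the untransduced wild-type list (left) and the null list (right). Bars are exact 95% binomial intervals. The share goes from 84.3% to 42.2% on the left and from 77.9% to 18.2% on the right, below the share with the non-silencing list in every part.

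The sites strongest in both lists were chosen by the worse of their ranks. Kdm3b, a histone demethylase gene (chr18:34777008-34839370), had its summits 99 bp outside one gene end, with scores of 51.7 in wild type and 43.9 in null. Hpca, the neuronal calcium sensor hippocalcin, held a pair inside the gene with scores of 51.0 and 41.5, and Gdf15, a stress-induced secreted factor, with 53.2 and 40.4. Myrf, a regulator of myelin genes, had 57.5 and 33.8, and Atp5g2, a subunit of ATP synthase, had 42.1 and 33.6 at 141 bp before its start. The other 5 of these 10 sites were Slc48a1, Nemf, 4930467E23Rik, Sec22c and Adcy4, with scores from 34.1 to 37.6 in wild type and from 32.2 to 50.3 in null. All 10 had a non-silencing score between 35.9 and 69.5, and the paired summits lay 1 to 73 bp apart.

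Sorted by all 3 lists, 4755 wild-type summits (57.3%) were in every list, 2347 (28.3%) were shared with the non-silencing list and not with null, and 829 (10.0%) were in the untransduced list alone. Of null summits, 4801 (40.3%) were in every list, 4224 (35.4%) were shared with the non-silencing list and not with untransduced wild type, and 2530 (21.2%) were in neither wild-type list. So 4224 of the 6754 null summits that lacked an untransduced counterpart were present in other wild-type cells. The 2530 remaining had a median score of 6.66, and 9.88% of them reached a score of 10, against 46.7% of null summits found in all 3 lists. The 2347 wild-type summits with a non-silencing and no null counterpart had a median of 8.23, and 30.2% reached 10.

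**Figure D3:**
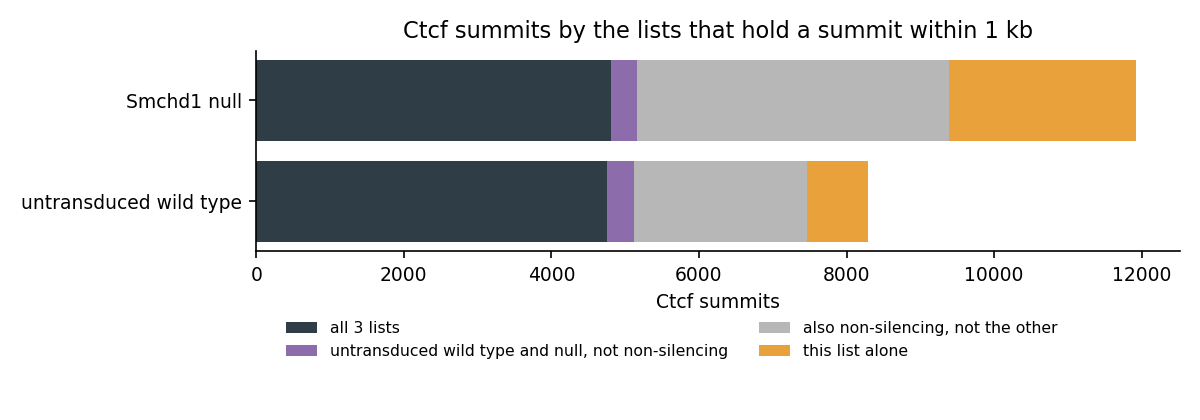
Number of Ctcf summits in the untransduced wild-type list and the null list, split by which other lists hold a summit within 1 kb. The segments in all 3 lists are of nearly equal size (4755 and 4801), and the null bar is longer through summits shared with the non-silencing list alone (4224) and summits of its own (2530).

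The next genes are those at the 10 highest null summits with no untransduced wild-type summit within 5 kb and with the end of a coding gene within 10 kb. Pigt, a subunit of the GPI transamidase, had a null score of 24.9, Ube2g2, an enzyme of protein degradation at the endoplasmic reticulum, 24.4, and Sh2b3, an adaptor of cytokine signalling, 23.1. Polr2j had 21.9, Mark3, a microtubule affinity kinase, 21.8, Rab27a, a GTPase of vesicle transport, 21.6, and Ubtf, a factor of ribosomal gene transcription, 21.0. Trappc5, A530032D15Rik and Ankrd39 had 20.7, 20.7 and 20.4. Each of the 10 had a non-silencing summit within 45 bp, with scores from 8.29 to 18.8, so none of them was in the null list alone.

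Chosen after these values were seen, and with the same limit on gene ends, the highest null summits with neither wild-type list within 5 kb were at Ptger1, a prostaglandin receptor (17.3), and Amz1 (16.2). Hoxb5, Prdm16, a zinc finger regulator of neural stem cells, Gm51464 and C130026I21Rik each had 15.9. Fbxo46, Stk32b and Prrt3 had 14.4 and Mmp25 had 13.2. The matching wild-type summits, also chosen after values were seen, are those with a non-silencing and no null summit and a coding gene end within 10 kb. They were led by Lemd2, an inner nuclear membrane protein (22.9), Prelid3a (21.4), Nol9 (20.3) and the pair Anxa6 and Fdxr (19.2). Ppp2cb had 18.6, Bicra 18.0, and Anapc2 and Rabggta 17.8, with non-silencing scores from 10.6 to 24.2 over these sites.

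A gene is called marked by a list that has a summit no more than 2 kb from its annotated start or end. Of 21887 coding genes, 2110 were marked in wild type, 2726 in null and 3333 in at least 1 of them. Of these 3333, 1503 were marked in both (45.1%), 1223 in null only (36.7%) and 607 in wild type only (18.2%). The non-silencing list marked 820 of the null-only genes and 440 of the wild-type-only genes. When the null list was cut to the length of the wild-type list, 814 genes were null only and 819 wild type only, so the surplus of null-only genes was not present at equal length. Of the 4577 genes marked in any of the 3 lists, 403 were marked in null and neither wild-type list (8.8%), and 440 in both wild-type lists and not in null (9.61%). A gene's 2 ends can lie at different kinds of element, and exons were not used here.

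The clustered protocadherins, which encode neuronal cell surface proteins and whose alternative promoters are bound by Ctcf when chosen, were marked more often in null than in untransduced wild type at the alpha and beta clusters. Of the 14 genes of the alpha cluster (Pcdha, chr18:36930285-37187663), 10 were marked, 9 in null only and 1, Pcdhac1, in both. The 9 were Pcdha1 to Pcdha6, Pcdha8, Pcdha9 and Pcdha12, and 8 of them were marked in neither wild-type list. The null list held 14 summits in the cluster, the untransduced wild-type list 1 and the non-silencing list 2. At Pcdhac1 the summits scored 12.999 in wild type, 11.4 in null and 28.2 in the non-silencing list.

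Null scores at the other Pcdha genes were moderate. They were highest at Pcdha4 (13.2, rank 1546 of the null list) and Pcdha8 (13.1, rank 1649), 9.46 at Pcdha3 and 8.28 at Pcdha5. The lowest were 6.66 at Pcdha1 and 6.03 at Pcdha12. The summits lay near the lower annotated gene end, where the variable exon of each gene is: Pcdha4, Pcdha5 and Pcdha6 had theirs 530, 621 and 576 bp inside it. Pcdha3 held a pair, 56 bp before and 575 bp inside that end, and Pcdha8 a pair 257 bp before and 422 bp inside. The upper ends of these genes lie within a few kb of each other, so each gene was told apart by its lower end. With a score of 10 as minimum, 2 Pcdha genes were null only, and at equal list length 6 were.

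In the beta cluster (Pcdhb, chr18:37264998-37521419), 7 of 22 genes were marked in null only and 0 in untransduced wild type. Pcdhb9 had a null summit 13 bp from its lower end with a score of 10.4. Pcdhb15 and Pcdhb16 shared 1 summit with a score of 8.28, and Pcdhb13 and Pcdhb14 shared 1 with a score of 5.56, so the 7 genes rest on 5 summits. At equal list length 3 Pcdhb genes were null only, and with a score of 10 as minimum 1 was. Pcdhb19 had 4.76 and Pcdhb10 had 5.55, and only Pcdhb10 was also marked in the non-silencing list (10.9). The non-silencing list marked 4 other genes there, Pcdhb2, Pcdhb3, Pcdhb6 and Pcdhb7, with scores from 5.92 to 10.9. So the absence of summits in the beta cluster held for the untransduced wild-type list and not for the non-silencing one. The gamma cluster (Pcdhg) had 0 of 21 coding genes marked in either list. Within it and 20 kb on each side, the null list still held 3 summits, with scores of 7.45, 8.80 and 11.5. Each of them had a non-silencing summit within 1 kb. The non-silencing list held 4 summits there and the untransduced wild-type list 0.

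H3K4me3, mapped by a separate ChIP in the same genotypes, was compared at these summits. All 14 null Ctcf summits of the alpha cluster had an H3K4me3 summit of null cells within 1 kb, and 3 of 14 had one of wild-type cells. Over all 11920 null Ctcf summits, 16.9% had one of null cells and 16.9% one of wild-type cells. The cluster held 14 H3K4me3 summits in the null list and 4 in the wild-type list, while the whole lists held 24201 and 23449. In the beta cluster 3 of the 5 null Ctcf summits had a null H3K4me3 summit and 1 had a wild-type one, and the cluster held 9 and 4. Over all 2530 null summits found in neither wild-type Ctcf list, 45 (1.78%) had H3K4me3 in the null list only and 22 (0.870%) in the wild-type list only. Methylated DNA lay near 12 of the 14 Pcdha summits in the MBD list named for wild type and near 6 in the list named D1. Over all null Ctcf summits the shares were 17.6% and 14.6%. The genotype of the MBD lists is given in conflicting ways by the labels, so these counts carry no direction.

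**Figure D4:**
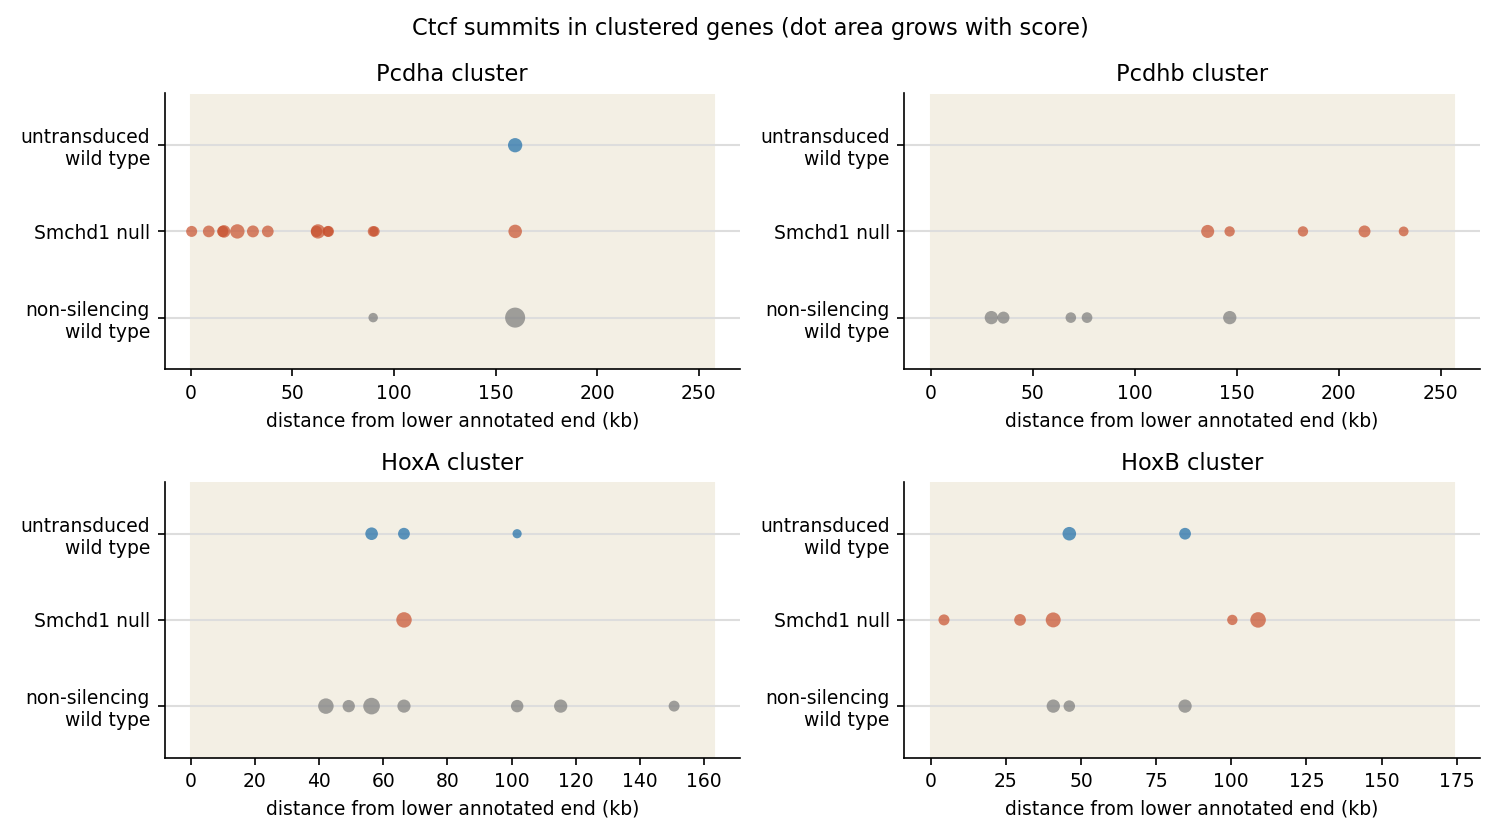
Ctcf summits in the Pcdha, Pcdhb, HoxA and HoxB clusters in the 3 lists, by distance in kb from the lower annotated end of the cluster (shaded box). Dot area grows with the score. The null row holds 14 Pcdha and 5 Pcdhb summits against 1 and 0 in untransduced wild type, whereas at HoxA it holds 1 against 3.

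The Hox clusters, which set position along the body axis and carry Ctcf boundaries, did not share a direction. In HoxA (chr6:52155367-52318389) Hoxa3 (9.54) and Hoxa13 (3.81) were marked in wild type only and 0 genes in null only. Hoxa9 was marked in both, with 8.01 in wild type and 15.7 in null. All 3 wild-type HoxA summits were in the non-silencing list as well. In HoxB (chr11:96194316-96368254) Hoxb5 and Hoxb6 were marked by 1 null summit with a score of 15.9, absent from both wild-type lists, and Hoxb8 by a wild-type summit of 7.89. In HoxD (chr2:74652989-74765142) Hoxd11 (7.67), Hoxd12 and Hoxd13 (both 7.13, from 1 summit) were marked in null only, and the non-silencing list marked Hoxd12 and Hoxd13 too. The highest HoxD summit of the pair was a wild-type one (12.999) that marked no HoxD gene. It had a non-silencing counterpart (9.23) and no null one. With gene ends at 5 kb, 4 HoxD genes were null only and 2 wild type only. With a score of 10 as minimum, 0 were in either class. Hoxc10 was marked in both, with 8.23 in wild type and 14.4 in null. Smchd1 summits lay within 1 kb of 3 of 3 wild-type and 1 of 1 null Ctcf summits in HoxA. In HoxB they lay near 2 of 2 and 2 of 5, and in HoxD near 2 of 2 and 4 of 5. Over the whole lists, 1.10% of wild-type and 1.16% of null Ctcf summits had one.

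Of 33 genes of the loop machinery (cohesin, condensin and Ctcf), 7 were marked in at least 1 list of the pair. Over all coding genes, 3333 of 21887 were. Of the 7, 6 were in both lists, while 45.1% of all marked genes were in both. Smc3, a core cohesin subunit, was in null only of the pair (9.31), and the non-silencing list marked it too (16.6). Stag2, the cohesin subunit on the X chromosome, had a score of 7.72 in wild type, 18.8 in null and 13.4 in the non-silencing list. Pds5a and Pds5b, which regulate cohesin release, had 11.3 and 10.5 in wild type and both 17.0 in null. In the non-silencing list they had 17.6 and 12.2. The Ctcf gene itself (chr8:105636474-105682922) held 1 summit in each list, with 13.4 in wild type, 17.3 in null and 9.58 in the non-silencing list, and Ncaph2 and Esco1 were marked in both as well. The Smchd1 gene (chr17:71344489-71475366), in which the null cells carry their mutation, held 0 Ctcf summits in all 3 lists, so these files give no check of the null allele. An untransduced wild-type summit lay within 10 kb of an end of Smc3 too (9.87).

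Of 7 imprinted coding genes of the Snrpn region, 2 were marked in at least 1 list of the pair, and of 30 others 2 were. Over all coding genes, 3333 of 21887 were. Peg3 and Usp29, paternally expressed neighbours, shared 1 null summit at their start (8.38), which the non-silencing list also held (9.76). Wild type held a summit elsewhere within 10 kb (11.5). In the Snrpn region Peg12 was marked in both, with 8.99 in wild type and 12.99 in null, and Ube3a in wild type only (4.64). Kcnq1ot1, the noncoding RNA of its imprinted domain, was marked in wild type only (8.22), and Peg13 in all 3 lists with 12.3, 6.03 and 10.9. The non-silencing list marked neither Ube3a nor Kcnq1ot1, so the other wild-type list did not repeat these marks. At H19 no list held a summit closer than 2 kb to an end of the gene, and within 10 kb the null list had one of 4.47 and the non-silencing list one of 14.7. The X inactivation genes Xist, Tsix, Jpx and Ftx and the Firre locus held 0 summits in all 3 lists, and these cells are male.

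Of 6 marked genes of neural stem cells 3 were in both lists, and of 6 marked neuron genes 5 were. Nes, the intermediate filament of neural progenitors, had 17.3 in wild type and 12.6 in null, Olig2 had 11.01 and 12.8, and Msi1 had 12.1 and 6.44. Hes1 (9.94) and Slc1a3 (6.69) were marked in null only and Vim (5.48) in wild type only. All 3 had a non-silencing summit. Tubb3, a neuronal tubulin, was the neuron gene marked in null only (10.6), and it was in neither wild-type list. Of 7 marked developmental transcription factors, 1 (Tbx2) was in both and 5 were null only. Foxa2 had the highest null score (18.8), followed by Lhx5 (9.46), Irx3 (6.70), Dlx2 (5.56) and Irx2 (5.56), and 4 of the 5 had a non-silencing summit, the exception being Irx2. Nkx2-2, a patterning factor of the ventral neural tube, was marked in wild type only (14.8). These counts stand beside the 36.7% null only and 18.2% wild type only over all marked genes, and each rests on 7 genes or fewer.

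A few other genes of the fixed lists were marked in a single list of the pair. Mbd4, a thymine glycosylase, was null only (11.4) and Mbd1, a methyl-CpG binding protein, wild type only (9.05). Cdh5 (12.6) and Acta2 (4.46), of endothelium and smooth muscle, were wild type only. Housekeeping genes were divided: Gapdh (9.80) and Eef1a1 (8.58) were among the null-only ones. Pgk1 was wild type only, through the summit described above, which was not tested as a Ctcf site. Among loci known for loop anchors, Kcnj2 was null only (10.4) and Myc wild type only (8.28). Each gene named here also had a summit in the non-silencing list.

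**Figure D5:**
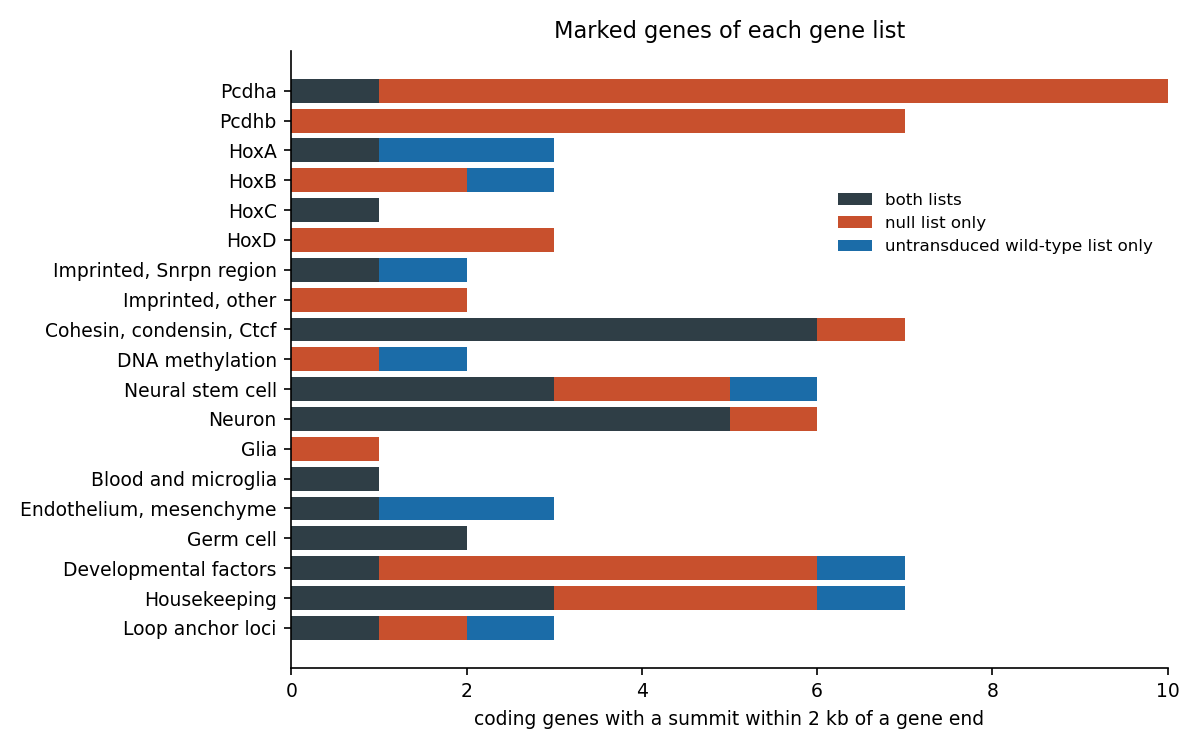
Number of coding genes of each gene list with a Ctcf summit within 2 kb of a gene end, in both lists, in null only and in untransduced wild type only. Pcdha (9 null only) and Pcdhb (7) stand at the top, and of the few marked cohesin and neuron genes 6 of 7 and 5 of 6 are in both.

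On the X chromosome, of which these male cells carry a single copy, summits of both lists were shared less often than on the autosomes. The cause was not tested. The wild-type list held 64 X summits, the null list 131 and the non-silencing list 280. Of the 131, 31 had a wild-type counterpart (23.7%, 16.7% to 31.9%), against 43.6% on autosomes (42.7% to 44.5%). Of the 64 wild-type X summits 30 had a null counterpart (46.9%, 34.3% to 59.8%), against 61.8% on autosomes. In neither wild-type list were 56 of the 131 (42.7%, 34.1% to 51.7%), against 21.0% on autosomes. Null X summits scored lower, with a median of 6.70 against 8.28, and low scores are shared less often everywhere. At scores from 5 to 7 the share in neither wild-type list was 54.9% on X (28 of 51) and 35.0% on autosomes. At 7 to 9 it was 33.3% (10 of 30) and 17.0%, and at 9 to 12 it was 33.3% (9 of 27) and 11.7%. The X intervals are wide: their lower ends in these 3 ranges, 40.3%, 17.3% and 16.5%, lay above the autosomal shares, at 7 to 9 by very little. Below a score of 5 the X share was 60.0% (9 of 15, 32.3% to 83.7%), an interval that includes the autosomal 54.9%. No X summit of 12 or more was in neither list (0 of 8). Among the highest of the 56, chosen after values were seen, were those inside Stag2 (11.7), near Slc25a5 (10.4) and near Eif2s3x and Klhl15 (both 9.46).

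Other readouts were set beside the classes of summit. Shared summits lay within 1 kb of an annotated start site in 14.6% of wild-type cases and 14.8% of null cases. Unshared ones did so in 10.5% (wild type) and 9.50% (null), and null summits found in neither wild-type list in 8.03%. H3K4me3 of wild-type cells lay within 1 kb of 22.1% of shared wild-type summits, 14.55% of wild-type summits without a null counterpart and 12.8% of null summits without a wild-type one. Smchd1 summits were rare at all of them: 77 of 5166 shared null summits (1.49%, 1.18% to 1.86%), 61 of 6754 unshared null summits (0.903%, 0.692% to 1.16%) and 15 of 3176 unshared wild-type summits (0.472%, 0.265% to 0.778%). The MBD list named for wild type lay near 15.5% to 17.6% of the shared and unshared classes of both lists. Scores differ between the classes too, so the shares were also taken over summits with a score of at least 10. Start sites then lay near 15.5% of shared and 10.3% of unshared wild-type summits, and near 17.0% and 11.9% of null ones. H3K4me3 of wild-type cells lay near 22.6% and 14.51% in wild type, and near 25.1% and 16.9% in null. Smchd1 summits lay near 50 of 2327 shared null summits (2.15%, 1.60% to 2.82%) and 24 of 1386 unshared ones (1.73%, 1.11% to 2.57%), with intervals that overlap.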

How the data were processed

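Ctcf was measured by ChIP-seq on crosslinked, sonicated chromatin, per the labels' protocols. The submitters' processing notes name CASAVA 1.4 for the reads, MACS2 in version 2 for the peaks, and mm10. No aligner is given in the sources used here. The deposited score of each summit is the −log10 of a p-value or else a q-value (the sources do not say which), and the lowest lay just above 3.30, the −log10 of 5e-04. Each list pools 2 libraries, so depth per library is unknown and no test across samples was possible.

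Distances, overlaps and exact 95% binomial (Clopper-Pearson) intervals used scipy 1.17.1, pandas 2.3.3 and numpy 2.4.6 under Python 3.11.15. Figures used matplotlib 3.10.9. The intervals treat summits as independent. Summits on unplaced sequences (9 wild type, 13 null, 15 non-silencing) were left out. Genes came from RefSeq (GRCm38.p6, the assembly of mm10; 49943 genes, 21887 coding), and start sites from its promoter windows, which covered 17492 of the coding genes. Genes without a window, those of chromosome 18 among them, have no start-site value. Functions were tested on simulated data. The summit list for Smchd1 at the looser threshold was not used here.

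Named genes are those at the 10 highest summits of a list with none of the other within 5 kb and a gene end within 10 kb, the 10 best shared pairs, members of 21 gene lists marked in 1 list, Ctcf and Smchd1, and 2 promoters a class. A few genes chosen in this way are left unreported. The members and lists were chosen with earlier results of these data known. Alternatives changed distance, score minimum, list length, gene definition, wild-type list and motif.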

Additional observations from a re-analysis of the deposited data

How the results depend on the processing

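No paired analysis was possible because each list pools its 2 libraries, and for the same reason no replicate could be left out. The share of wild-type summits with a null counterpart (61.7%) was 60.5% at 250 bp, 65.6% at 5 kb, 45.0% with scores of at least 10, 51.5% at equal list length and 44.7% with the non-silencing list as wild type. The share of null summits with a wild-type counterpart (43.3%) was 42.1%, 47.8%, 38.0%, 51.4% and 75.7% in that order. Null-only coding genes (1223) numbered 2057 with gene ends at 5 kb, 685 at start sites only, 591 with scores of at least 10, 814 at equal length and 492 with the non-silencing list. Wild-type-only genes (607) numbered 986, 361 and 402 in the matching settings and 1684 with the non-silencing list, where the longer list is the wild-type one. Wild-type summits shared with the non-silencing list and not with null (2347) numbered 1477 at equal length. The motif share was 51.8%, 46.6% and 38.6% (both, null only, wild type only) with the looser CNAGNNGGC, and 38.0% (both) and 29.5% (wild type only) with AGGGGGC. Null-only minus wild-type-only gene counts changed sign for HoxA (from -2 to 1 with scores of at least 10) and for cohesin genes (from 1 to -1 with the non-silencing list). They changed from 1 to -1 for neural stem cell genes at start sites, with scores of at least 10, at equal length and with the non-silencing list. For developmental factors they changed from 4 to -1 with scores of at least 10 and to -2 with the non-silencing list. Apart from construction (other list lengths, wider or narrower windows, fewer genes with a start site), the cause was not tested. Of the summit, gene and motif results above, 27 other values stayed near the first, shares inside its 95% interval and counts within 1.5 times. Wild-type-only genes were among them, with 819 at equal length and 430 with no null summit within 10 kb. So were all 6 values without the 4 runs and Pgk1, an alternative added after the data were seen.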

Other observations

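Values below were chosen after they were seen. The Snrpn region (chr7:59228750-62464510) held 3 wild-type summits, 11 null summits and 12 non-silencing summits within the region and 20 kb on each side. The strongest null summit there scored 23.1 and had counterparts of 7.53 in wild type and 33.7 in the non-silencing list. Of the other null summits, 1 more was in all 3 lists, 5 were shared with the non-silencing list alone and 4 with neither. In the Gnas region the null list held 1 summit (11.8) with no counterpart, the untransduced wild-type list 0 and the non-silencing list 1 at another place (15.4).

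The 8 of the 100 highest null summits that lacked an untransduced wild-type counterpart lay at 5 places: 3 near 98.7 Mb on chromosome 2, 2 near 19.4 Mb on chromosome 14, and 1 each on chromosomes 6, 9 and Y. Their null scores were 28.6 to 52.4 and their non-silencing scores 19.1 to 42.6, so of the 3 lists only the untransduced wild-type one lacked them. Only the chromosome 6 summit lay inside a coding gene. The sequence at these places was not read, and whether they are Ctcf sites or places of high background signal was not tested. Among chromosomes other than X, the ratio of null to wild-type summits was lowest on chromosome 19 (1.18) and highest on chromosome 18 (1.66).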
